A study of Mus musculus with 4 samples.

Results

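Pparg and 9 genes that act at the lipid droplet or bring fatty acids to it were followed in the livers of mice labelled as lacking the protease DDI2 in hepatocytes and of their WT littermates. The 10 genes are Pparg, Cidea, Cideb, Cidec, Plin2, Plin4, Plin5, Cd36, Mogat1 and Fabp4, of 48709 genes counted. The list was chosen by the measured level of Pparg, which was higher in DDI2-KO liver, so the difference between the genotypes is given for all 10 as a description, with no test. The question behind the list is whether known targets of PPARG moved with Pparg, and tests were kept for genes outside it. Those genes were also chosen with earlier results of these data known. Liver RNA of untreated adult C57BL/6 mice was sequenced as 4 mRNA libraries, 2 of genotype WT and 2 of genotype DDI2-/-. Mice of both genotypes carried the floxed Ddi2 allele, without Cre recombinase in WT, and with Cre under the albumin promoter, which is active in hepatocytes, in DDI2-KO. Other cells of the liver therefore keep the gene in this model. Nothing in the labels gives feeding state or hour of collection.

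PPARG is a nuclear receptor that binds fatty acids and their derivatives, pairs with a retinoid X receptor and switches on genes of fat storage. It is the master regulator of fat cells and is low in healthy hepatocytes, and it is known to be raised in fatty liver. Lipid droplets are stores of triglyceride and cholesterol ester, coated by perilipins and enlarged by CIDE proteins, which let droplets exchange lipid. Several of these genes also answer to PPARA, the related receptor that dominates in hepatocytes and drives fatty acid oxidation.

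The libraries held 22501208 to 34109018 reads on genes, and 3 reads, taken as the smallest detectable level, were worth 0.0880 to 0.133 CPM before TMM scaling. Reads are given as deposited, and levels as CPM, reads scaled to a common library size with edgeR's TMM factors. Differences are log2 fold changes (log2FC) of DDI2-KO against WT with their standard errors (SE) from the edgeR quasi-likelihood model of all 13699 genes that passed its filter on low counts. The labels do not say that each library came from a separate mouse, although the study describes 2 biological replicates, and with 2 libraries a group the p-values rest on little replication. The targeted gene did not check the labels. WT libraries had 4749 and 3812 reads of Ddi2, or 141 and 123 CPM. The labelled DDI2-KO libraries had 4068 and 3777 reads, or 157 and 164 CPM (log2FC 0.28). Ddi2 was thus not seen to be lost, but a count over the whole gene cannot register the loss of a floxed segment. Of its 9553 exonic bases, 1749 are also exon of Rsc1a1 on the same strand, and 17.9% of its 50-base stretches occur in other genes. Hepatocyte markers were high in every library, with Alb at 122390 to 154589 CPM. The labels give no sex, 4 Y-linked genes were at 0 in every library, and Xist had 11533 to 17484 reads in WT and 1230 to 3288 in labelled DDI2-KO.

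Pparg (ENSMUSG00000000440, chromosome 6 of GRCm38, 115360951 to 115490399, plus strand) was higher in labelled DDI2-KO. It had 325 and 378 reads in WT, or 9.67 and 12.2 CPM, and 565 and 525 reads in labelled DDI2-KO, or 21.8 and 22.8 CPM. Both libraries of the labelled knockout lay above both WT libraries, and the libraries of a genotype differed by 1.27-fold in WT and 1.05-fold in DDI2-KO. The group means were 11.0 ± 1.82 CPM (SD, n = 2) and 22.3 ± 0.719 CPM (SD, n = 2), a log2FC of 1.03 (SE 0.19). These are the values that chose the list. Leaving out 1 library, the log2FC lay between 0.87, without WT replicate 1, and 1.21, without WT replicate 2.

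The count of Pparg sums transcripts from several starts, which encode a receptor found in many tissues and a longer form typical of fat cells, so it does not say which form differed. RefSeq places 3 starts of Pparg on GRCm38.p6, and the 250 bases before each are shown because the data cannot separate them. A nuclear receptor pair with PPARG binds 2 copies of AGGTCA set 1 base apart, and capitals mark each AGGTCA or its reverse complement.
Pparg, chr6:115360894-115361143, plus strand: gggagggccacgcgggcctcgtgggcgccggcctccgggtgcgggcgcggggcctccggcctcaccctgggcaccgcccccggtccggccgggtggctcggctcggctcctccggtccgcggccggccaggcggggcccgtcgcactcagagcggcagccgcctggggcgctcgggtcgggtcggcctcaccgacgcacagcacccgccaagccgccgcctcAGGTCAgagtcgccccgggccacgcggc
Pparg, chr6:115362099-115362348, plus strand: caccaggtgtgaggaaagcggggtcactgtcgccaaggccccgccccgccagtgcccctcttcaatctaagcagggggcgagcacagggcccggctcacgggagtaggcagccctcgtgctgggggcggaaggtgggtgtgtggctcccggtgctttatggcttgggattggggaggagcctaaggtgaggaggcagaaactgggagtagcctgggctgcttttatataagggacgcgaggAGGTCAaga
Pparg, chr6:115421816-115422065, plus strand: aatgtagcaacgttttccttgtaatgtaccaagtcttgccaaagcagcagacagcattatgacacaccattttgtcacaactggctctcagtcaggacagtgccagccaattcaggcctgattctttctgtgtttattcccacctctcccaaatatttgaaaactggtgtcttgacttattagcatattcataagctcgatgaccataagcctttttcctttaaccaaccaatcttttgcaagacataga
The third of these lies before the start of the fat-cell form. It holds no AGGTCA, and the upstream starts hold 1 each.

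**Figure D1:**
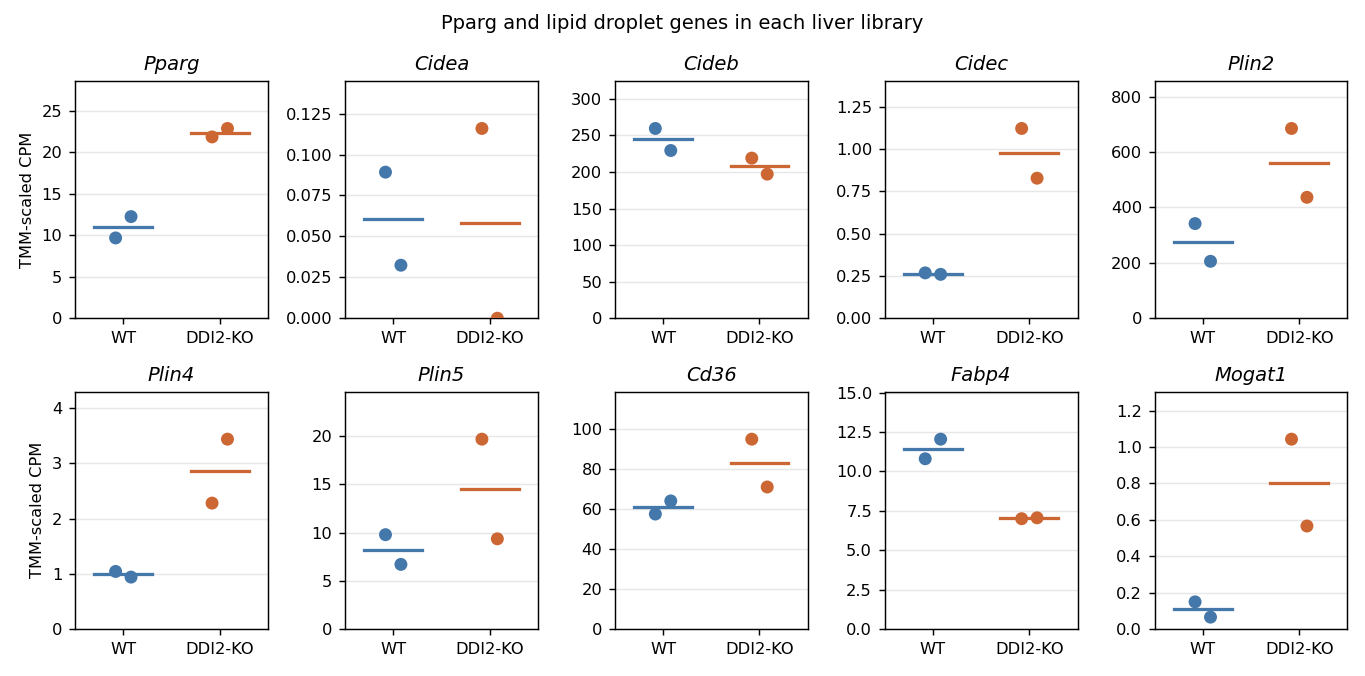
TMM-scaled CPM of each of the 10 genes in each library, with 1 panel per gene and its own axis from 0. Points are libraries, blue for WT and orange for DDI2-KO, and bars are means of 2. In 6 panels (Pparg, Cidec, Plin2, Plin4, Cd36 and Mogat1) both orange points lie above both blue points, in 2 (Cideb and Fabp4) below, and in Plin5 and Cidea the groups overlap. Of all tested genes, 28.0% lie above and 27.7% below in the same way.

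Among the perilipins, the coat proteins of the droplet, Plin2 and Plin4 were higher in labelled DDI2-KO and Plin5 overlapped between the groups. Plin2 (ENSMUSG00000028494, chromosome 4, 86648386 to 86670060, minus strand), the main perilipin of hepatocytes, whose protein is stabilized by the lipid it covers, had 11494 and 6350 reads in WT, or 342 and 206 CPM. The labelled DDI2-KO libraries had 17741 and 10036 reads, or 685 and 437 CPM. Every library of the labelled knockout was above WT, but the spread within a genotype was wide, 1.66-fold in WT and 1.57-fold in DDI2-KO, and the log2FC of 1.04 (SE 0.31) fell to 0.68 without DDI2-KO replicate 1 and reached 1.45 without WT replicate 1. Of the 50-base stretches of its transcript, 4.89% also occur in other genes, mainly Gm12551, so a small part of its count is uncertain.

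Plin4 (ENSMUSG00000002831, chromosome 17, 56100591 to 56109803, minus strand), a perilipin of fat cells and muscle that coats nascent droplets, was scarce. It had 35 and 29 reads in WT, or 1.04 and 0.939 CPM, and 59 and 79 reads in labelled DDI2-KO, or 2.28 and 3.44 CPM. The groups did not overlap, and the log2FC was 1.52 (SE 0.35). Plin5 (ENSMUSG00000011305, chromosome 17, 56111601 to 56117596, minus strand), which tethers droplets to mitochondria in oxidative tissues, had 329 and 207 reads in WT, or 9.79 and 6.70 CPM. In the labelled DDI2-KO libraries it had 510 and 215 reads, or 19.7 and 9.36 CPM. Replicate 2 of DDI2-KO was below replicate 1 of WT, so the groups overlapped. The log2FC of 0.82 (SE 0.37) fell to 0.19 without DDI2-KO replicate 1, so that library set most of the difference.

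The CIDE genes differed in direction. Cidec (ENSMUSG00000030278, chromosome 6, 113424634 to 113435760, minus strand), which fuses droplets in white fat cells and appears in fatty liver, was scarce, and higher in labelled DDI2-KO. It had 9 and 8 reads in WT, or 0.268 and 0.259 CPM, and 29 and 19 reads in labelled DDI2-KO, or 1.12 and 0.827 CPM. On summed reads the ratio to WT was 3.73 (95% exact interval 2.11 to 6.91, which covers counting error only), and the log2FC was 1.87 (SE 0.47).

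Cideb (ENSMUSG00000022219, chromosome 14, 55754050 to 55758458, minus strand), the CIDE protein that healthy hepatocytes use to load lipid onto very-low-density lipoprotein, was abundant and slightly lower. It had 8725 and 7087 reads in WT, or 260 and 229 CPM, and 5668 and 4529 reads in labelled DDI2-KO, or 219 and 197 CPM. The groups did not overlap, but the log2FC of -0.23 was little more than its SE of 0.17. Of its 1488 exonic bases, 1136 are also exon of Nop9 on the opposite strand. The strand setting of the counting is not given in the sources used here, and the effect of this overlap on the count of Cideb was not tested.

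Cidea (ENSMUSG00000024526), the CIDE protein of brown fat that is known to be induced in severe steatosis, was not detected above the floor. WT libraries held 3 and 1 reads of it and labelled DDI2-KO libraries 3 and 0, at most 3 in any library, so no fold is given and it was not among the genes tested.

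Cd36 and Mogat1 bring in fatty acids and join them into glyceride. Cd36 (ENSMUSG00000002944, chromosome 5, 17781690 to 17888801, minus strand), the scavenger receptor that takes up long-chain fatty acids, had 1929 and 1975 reads in WT, or 57.4 and 63.9 CPM, and 2453 and 1629 reads in labelled DDI2-KO, or 94.8 and 70.9 CPM. Both libraries of the labelled knockout lay above WT, and the log2FC was 0.45 (SE 0.19), or 0.23 without DDI2-KO replicate 1. Of the tested members, Cideb alone had a smaller difference.

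Mogat1 (ENSMUSG00000012187, chromosome 1, 78510991 to 78538173, plus strand), which makes diacylglycerol from monoacylglycerol and is known as a PPARG target in fatty liver, had the largest fold of the list from the fewest reads of any tested member. It had 5 and 2 reads in WT, or 0.149 and 0.0647 CPM, and 27 and 13 reads in labelled DDI2-KO, or 1.04 and 0.566 CPM. The groups did not overlap. The ratio of summed reads was 7.54 (95% exact interval 3.34 to 20.0, counting error only). The log2FC was 2.86 (SE 0.65), or 2.35 without DDI2-KO replicate 1 and 3.55 without WT replicate 1. The last value has WT replicate 2 as its only WT library, whose 2 reads are below the floor of 3. Some 200 of its 1558 exonic bases are also exon of BC035947 on the opposite strand.

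Fabp4 (ENSMUSG00000062515, chromosome 3, 10204088 to 10208576, minus strand), the fatty acid carrier of fat cells, macrophages and capillary endothelium and a classical PPARG target, went the other way. It had 363 and 372 reads in WT, or 10.8 and 12.0 CPM, and 181 and 162 reads in labelled DDI2-KO, or 6.99 and 7.05 CPM. Both libraries of the labelled knockout lay below WT, with a log2FC of -0.70 (SE 0.19) that stayed between -0.78 and -0.62 with each library left out.

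Markers of other cells were compared with Fabp4 because its usual sources in liver are not hepatocytes. Of 8 endothelial markers, Stab2, a scavenger receptor of sinusoidal endothelium, was lower, with 73.7 and 61.2 CPM in WT and 32.9 and 29.9 CPM in labelled DDI2-KO (log2FC -1.10, SE 0.17, adjusted p = 0.0288, edgeR with Benjamini-Hochberg). None of the other 7 passed, and 4 of the 8 had positive and 4 negative log2FC values. The groups did not overlap in 3 that were higher and 4 that were lower, where 28.0% and 27.7% of all tested genes did the same. The summed level of all 8 was 484 to 525 CPM in WT and 477 to 484 CPM in labelled DDI2-KO. None of 8 Kupffer cell and macrophage markers passed, led by Clec4f, and their sum was 624 to 730 CPM in WT and 743 to 869 CPM in labelled DDI2-KO. The 8 stellate cell markers, led by Lrat, all had negative log2FC values without passing (sums of 526 to 585 CPM and 478 to 511 CPM), and the 6 bile duct markers, led by Krt19, did not pass either (53.1 to 56.7 CPM and 69.1 to 70.8 CPM). The part of these cells in the level of Fabp4 was not tested, and in bulk tissue fewer cells of a type and less RNA per cell cannot be told apart.

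Fat cells also express Pparg, Cidec, Plin4 and Fabp4. Of 7 fat cell markers, 4 (Plin1, Cfd, Retn and Lep) were at 0 in every library and Adipoq had at most 2 reads in any. The remaining pair, Lipe and Adrb3, did not pass and had opposite signs. Lipe was 15.0 and 11.2 CPM in WT and 9.74 and 5.18 CPM in labelled DDI2-KO (log2FC -0.81). Adrb3 was 2.56 and 4.08 CPM in WT and 3.82 and 4.92 CPM in labelled DDI2-KO (log2FC 0.40), and both were named after their values were seen.

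Counted together, 9 of the 10 genes passed the filter on low counts. Cidec and Mogat1 passed it through the labelled DDI2-KO libraries alone, so the counts and median that follow only describe the 9. Pparg was the single gene of them with an adjusted p under 0.05, against 2.53% of all genes tested, a count that moved with the setting. In other settings with all 4 libraries Pparg passed in 7 of 10, Plin2 and Plin4 in 3 of 10, Fabp4 in 1 of 10, and Cidec and Mogat1 in 2 of 9. A replicate block is among these settings, although nothing says that libraries of equal number pair. Since this contrast chose the list, nothing is read from these counts. Of the 9, 7 had a positive and 2 a negative log2FC. The groups did not overlap in 6 that were higher and 2 that were lower, where 28.0% and 27.7% of all tested genes did the same, 55.7% together. The median of the 9 was 1.03, beside -0.015 over all tested genes. It is the value of Pparg itself, which chose the list.

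**Figure D2:**
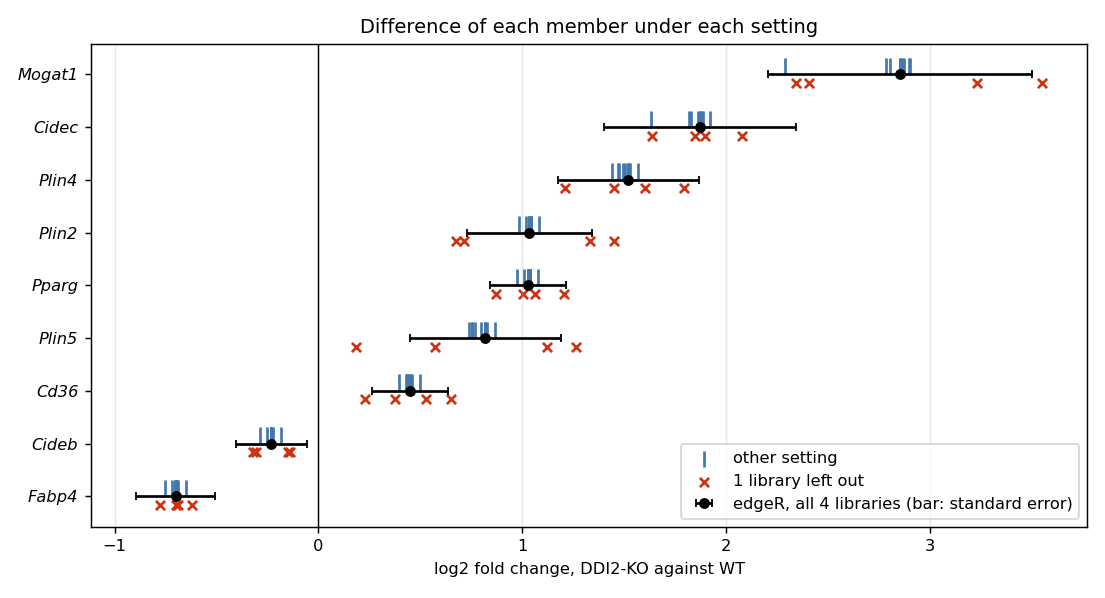
Log2FC of DDI2-KO against WT for the 9 genes that passed the filter. Black points are the edgeR model with all 4 libraries and bars its standard error, blue ticks are other settings, and red crosses leave out 1 library. Every mark of a gene lies on the same side of 0, and the crosses of Plin5 spread most towards 0, down to 0.19.

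The spread within a genotype differed between the genes. Pparg, Cideb and Fabp4 differed by at most 1.27-fold between libraries of the same genotype. Plin2 and Plin5 varied by 1.46-fold to 2.11-fold, and in both genes and both genotypes replicate 1 was the higher library. The same held for G0s2, the inhibitor of the droplet lipase ATGL, with 27.5 and 9.87 CPM in WT and 61.2 and 21.7 CPM in labelled DDI2-KO. It also held for Angptl4, an inhibitor of lipoprotein lipase induced by fasting and fatty acids, with 51.7 and 11.2 CPM in WT and 63.6 and 25.7 CPM. Both were chosen after their values were seen, both overlapped between genotypes, and neither passed the test (adjusted p = 0.474 for G0s2 and 0.811 for Angptl4, edgeR).

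Levels of different genes were compared per length, as CPM per kilobase of exon. In WT the order was Cideb at 164 ± 14.3 (SD, n = 2), Plin2 at 77.9 ± 27.5, Cd36 at 16.9 ± 1.29, Plin5 at 3.95 ± 1.05, Pparg at 3.71 ± 0.615, Fabp4 at 2.54 ± 0.196, Plin4 at 0.171 ± 0.0125, Cidec at 0.142 ± 0.00334, Mogat1 at 0.0685 ± 0.0381 and Cidea at 0.0545 ± 0.0361 CPM per kilobase. The libraries of Plin5 and Pparg overlapped, as did those of Mogat1 and Cidea, and the other neighbours did not. In the labelled DDI2-KO libraries, Plin2 at 160 ± 50.1 CPM per kilobase came first, overlapping Cideb at 140 ± 10.4. Pparg, at 7.56 ± 0.244, overlapped Plin5 at 6.96 ± 3.51. Cidec, Mogat1 and Plin4, at 0.525 ± 0.112, 0.516 ± 0.217 and 0.495 ± 0.142, overlapped their neighbours in turn.

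In both genotypes Cidec per kilobase was far below Cideb. The length of Fabp4 includes an annotated transcript that keeps its introns. Over its longest coding transcript of 896 bases Fabp4 came to 12.7 ± 0.981 CPM per kilobase in WT, above Plin5 and Pparg.

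**Figure D3:**
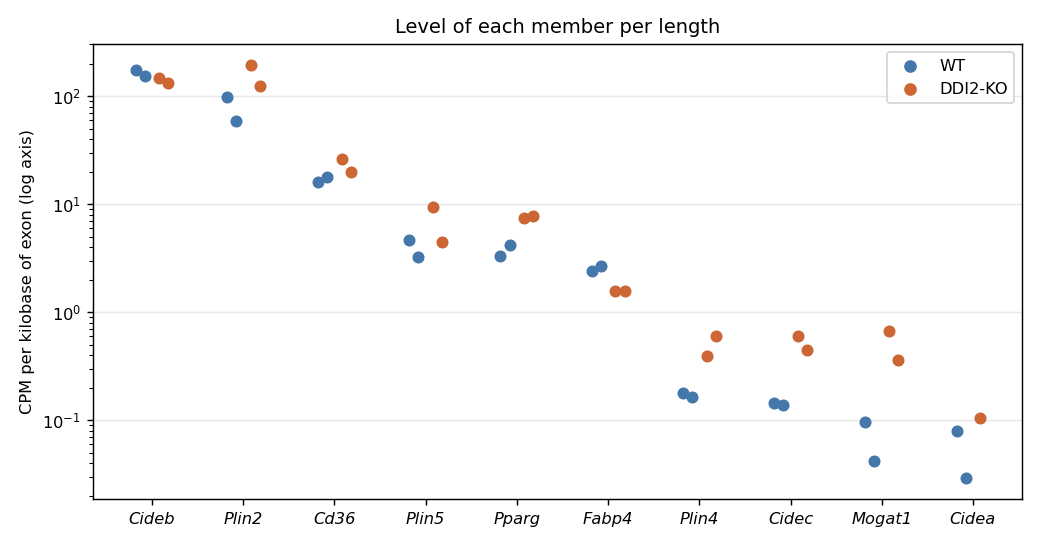
CPM per kilobase of exon for each gene in each library, on a log axis, ordered by the WT mean. Blue points are WT and orange points DDI2-KO, and the DDI2-KO library in which Cidea had 0 reads is not drawn. The genes fall from about 164 for Cideb in WT to below 0.1 for Mogat1 and Cidea.

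Sequence before the start was compared for 8 of the 10 genes, in 12 RefSeq windows of 250 bases. A looser form of the paired element, 2 copies of AGGNCA with 1 base between them on either strand, occurred in 0 of the 12 windows and in 0.338% of 32851 windows of all genes. A single AGGTCA on either strand, which any paired match of that exact spelling also contains, occurred in 5 of the 12, belonging to Pparg, Plin2, Plin5 and Cd36, and in 14.0% of all windows. The windows of Plin2 and Cd36, which hold 1 each, are shown beside that of Mogat1, which had the largest fold and holds none.
Plin2, chr4:86670060-86670309, minus strand: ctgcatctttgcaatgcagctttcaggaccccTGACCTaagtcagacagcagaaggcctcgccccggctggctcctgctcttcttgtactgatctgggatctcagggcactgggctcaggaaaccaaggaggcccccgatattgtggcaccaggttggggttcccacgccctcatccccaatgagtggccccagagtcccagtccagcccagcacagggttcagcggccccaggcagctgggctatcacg
Cd36, chr5:17835897-17836146, minus strand: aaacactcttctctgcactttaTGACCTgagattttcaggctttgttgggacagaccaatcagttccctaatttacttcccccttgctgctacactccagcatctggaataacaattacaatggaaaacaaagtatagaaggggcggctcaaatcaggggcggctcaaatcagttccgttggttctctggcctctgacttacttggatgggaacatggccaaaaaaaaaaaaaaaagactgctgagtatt
Mogat1, chr1:78510810-78511059, plus strand: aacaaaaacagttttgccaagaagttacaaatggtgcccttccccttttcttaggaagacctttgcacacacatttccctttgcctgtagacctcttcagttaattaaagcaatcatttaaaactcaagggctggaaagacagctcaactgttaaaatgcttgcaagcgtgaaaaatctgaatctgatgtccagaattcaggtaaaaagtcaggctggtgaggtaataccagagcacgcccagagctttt
These matches describe letters only, and sites farther from the start or inside introns were not searched.

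The pattern of Pparg over the 4 libraries was compared with that of 12709 protein-coding genes, by the root mean square difference of log2 CPM after centring each gene on its own mean. The closest were Lrrc28 (0.034), Tm2d1 (0.038), Atp5mpl (0.041), Rcn2 (0.041) and Tmem45a (0.049). Of the listed genes the nearest was Plin4, at 0.34 and rank 1550, followed by Cd36 at 0.35 and rank 1666, and the farthest was Mogat1, at 1.16 and rank 12316. The difference also grows with a larger fold in the same direction. Mogat1, which was higher in labelled DDI2-KO, thus ranked farther than Fabp4, at 0.87 and rank 11245, which was lower. With 4 libraries, this likeness is a description.

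Genes outside the list were tested in 8 groups of 138 genes, of which 130 passed the filter. Of these, 9 were higher and 2 lower with a Benjamini-Hochberg adjusted p under 0.05 over all 13699 genes (edgeR), where 1.33% of all tested genes were higher and 1.20% lower. The 9 include Aqp7, which was below 3 reads in both WT libraries. The 8 groups were chosen with earlier results of these data known, so these counts only describe them.

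Among 18 further PPARG targets of fat cells, 13 passed the filter, 11 did not pass the test, and the median log2FC was 0.14. The 2 that were higher were Adipor2 and Aqp7, and Aqp7 passed the filter only through the labelled DDI2-KO libraries, so its test is not read. Aqp7, the channel that lets glycerol leave fat cells, had 0 and 2 reads in WT against 23 and 24 reads in labelled DDI2-KO. The ratio of summed reads was 31.0 (95% exact interval 8.13 to 264, counting error only). This interval pools the reads of both libraries of a genotype and is not read as a test either. Of the 50-base stretches of Aqp7, 3.55% occur in other genes. Adipor2, the adiponectin receptor of liver, had 525 and 435 CPM in WT and 1117 and 853 CPM in labelled DDI2-KO, a log2FC of 1.04 (SE 0.21, adjusted p = 0.0445). The most abundant of the group, Acsl1, which activates fatty acids, and Pck1, which serves gluconeogenesis in liver and glycerol supply in fat, had log2FC values of 0.03 (adjusted p = 0.937) and -0.16 (adjusted p = 0.748) in edgeR. Plin1, Cfd and Retn were at 0 in every library.

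Of 20 other proteins of the droplet, all passed the filter, 2 were higher and 18 did not pass, with a median of 0.33. Ces1d, a carboxylesterase that releases triglyceride for secretion, rose from 697 and 627 CPM in WT to 1376 and 1543 CPM in labelled DDI2-KO (log2FC 1.14, SE 0.18, adjusted p = 0.0295, edgeR), and 1.28% of its 50-base stretches occur in other genes, mainly Ces1b. Fitm2, an endoplasmic reticulum protein needed for droplets to bud, rose from 23.6 and 23.8 CPM to 62.3 and 41.3 CPM (log2FC 1.13, SE 0.21, adjusted p = 0.0431, edgeR). Mettl7b, the next most abundant after Ces1d, had a log2FC of -0.17 (adjusted p = 0.610, edgeR).

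None of 13 tested genes of triglyceride synthesis passed, with a median of 0.28. The most abundant, Dgat2, which completes triglyceride, and Gpam, which begins it, had log2FC values of 0.44 (adjusted p = 0.243) and -0.01 (adjusted p = 0.989) in edgeR. Of 15 other genes of fatty acid and lipoprotein lipid uptake, 1 was higher and 14 did not pass, with a median of 0.15. It was Vldlr, the receptor for very-low-density lipoprotein, at 11.6 and 10.9 CPM in WT and 20.7 and 27.7 CPM in labelled DDI2-KO (log2FC 1.10, SE 0.20, adjusted p = 0.0404, edgeR). The main carriers of hepatocytes, Fabp1 and Slc27a2, had -0.10 (adjusted p = 0.755) and 0.05 (adjusted p = 0.911). Fabp5, a paralog of Fabp4 chosen after its values were seen, had 114 and 205 CPM in WT and 453 and 342 CPM in labelled DDI2-KO, a log2FC of 1.32 (SE 0.30) that did not pass (adjusted p = 0.0641, edgeR).

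No partner or upstream regulator of PPARG passed among 21 tested, with 9 positive, 12 negative and a median of -0.11. Rxra, the dimer partner of PPARG, had a log2FC of 0.04 (SE 0.24, adjusted p = 0.937, edgeR), and Mlxipl, which encodes the glucose-sensing factor ChREBP, -0.59 (SE 0.18, adjusted p = 0.100).

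Of 20 tested genes of PPARA and its oxidation program, 1 was higher and 19 did not pass, with a median of 0.24. Pdk4, the kinase that shuts off pyruvate dehydrogenase in fasting, stood at 228 and 214 reads in WT, or 6.78 and 6.93 CPM, and 918 and 750 in labelled DDI2-KO, or 35.5 and 32.6 CPM (log2FC 2.31, SE 0.17, adjusted p = 0.00911, edgeR).

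Of 13 genes of fatty acid synthesis, 2 were higher and 11 did not pass, with a median of 0.65. Me1 and G6pdx, which supply NADPH, had log2FC values of 1.66 (adjusted p = 0.0103) and 2.37 (adjusted p = 0.00942), edgeR, with 26.5% and 7.65% of their 50-base stretches in other genes. Scd1, the desaturase and the most abundant of the group, had 4127 and 13732 CPM in WT and 23177 and 23061 CPM in labelled DDI2-KO, and did not pass (log2FC 1.37, SE 0.61, adjusted p = 0.277). Fads1, the next, had 0.03 (adjusted p = 0.928).

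Clock genes are given because several droplet genes cycle over the day and with feeding. Of 15, Nfil3 was higher (1.18, adjusted p = 0.0345), Per1 (-1.27, adjusted p = 0.0438) and Nr1d2 (-1.08, adjusted p = 0.0289) were lower, and 12 did not pass, Nr1d1 (-0.62, adjusted p = 0.318) and Tef (-1.06, adjusted p = 0.125) among them, in edgeR. Their median was -0.62. Over settings with all 4 libraries the count of 3 ranged from 1 with limma-trend to 7 with DESeq2. The WT libraries lay far apart in some clock genes, among them Arntl at 15.7 and 4.95 CPM, Per3 at 12.9 and 41.7 CPM and Ciart at 0.833 and 5.31 CPM, which were picked after their values were seen. The part of time of day or feeding in the level of Pparg and the droplet genes was not tested.

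Leaving out 1 library leaves 1 in that genotype, which is then assumed to vary like the other genotype's 2, from which all the spread comes. Under that limit Pdk4, Me1 and G6pdx passed each time in edgeR, and 7 others, Aqp7 aside, each failed at least once. Without WT replicate 1 the adjusted p was 0.0735 for Adipor2, 0.137 for Fitm2, 0.124 for Vldlr, 0.155 for Per1 and 0.142 for Nfil3. Without WT replicate 2 it was 0.130 for Adipor2, 0.102 for Fitm2, 0.0556 for Ces1d, 0.119 for Vldlr, 0.0839 for Per1 and 0.0753 for Nr1d2. Without DDI2-KO replicate 1 it was 0.0817 for Adipor2 and 0.0689 for Per1. No direction of these 10 genes changed.

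**Figure D4:**
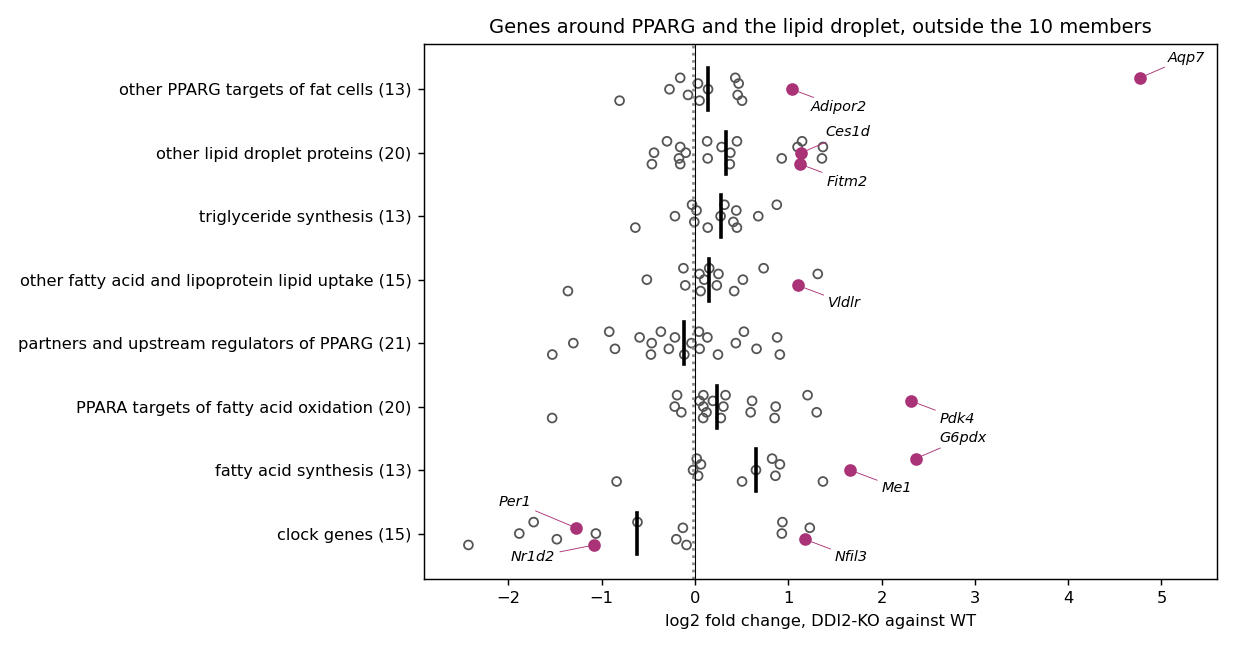
Log2FC of DDI2-KO against WT for the tested genes of the 8 groups outside the list, with the number tested in brackets. Filled points had an adjusted p under 0.05 and are named, open circles did not, black bars are medians and the dotted line is the median of all tested genes. The fitted value of Aqp7, at the far right, rests on 2 reads in WT, and the medians lie between -0.62 for clock genes and 0.65 for fatty acid synthesis.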

How the data were processed

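The authors deposited raw read counts per Ensembl gene, 1 file for each of 4 TruSeq stranded mRNA liver libraries. The submitters' processing notes name cutadapt 1.8, STAR 2.5.2b, HTSeq 0.6.1 and GRCm38. The strand setting and annotation release used for counting are not given in the sources used here. The 5 summary lines after the genes were left out. Relative to gene reads, those assigned to no gene equalled 2.53% to 5.11%, and ambiguous ones 2.50% to 3.66%. The line for alignments that were not unique was far larger. It equalled 65.8% and 51.8% for the WT libraries, and 49.2% and 47.3% for the labelled DDI2-KO libraries. Its effect on genes with stretches shared with other genes was not tested.

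Symbols, positions and exon lengths were taken from GENCODE M21 (GRCm38), which held 48349 of 48709 identifiers, and promoters from RefSeq. Gyk of the fixed lists was found as Gk through RefSeq synonyms. Counts were fitted with edgeR 4.0.16 in R 4.3.3 (TMM, filterByExpr, robust glmQLFit, glmQLFTest, Benjamini-Hochberg), and the standard error was the log2 fold change divided by the square root of F. The study itself used limma's moderated test, run here as an alternative (limma 3.58.1), beside DESeq2 1.42.0, other scalings, other filters, a replicate block and each library left out. The code was tested on simulated data. The 2 WT libraries were not 1 library deposited again (chi-square over its degrees of freedom 64.7), nor were the DDI2-KO libraries (34.7).

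The 10 genes and the wider lists were chosen with earlier results of these data known. Named genes are the 10, Ddi2, every wider-list gene with an adjusted p under 0.05, the 2 most abundant of each wider list, the 5 closest to Pparg and the first marker of each cell type. Others are said to be chosen after their values were seen. For 1 wider list the most abundant genes are not reported here.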

Additional observations from a re-analysis of the deposited data

How the results depend on the processing

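The signs of the 9 tested log2 fold changes of Pparg and the droplet genes held in every setting run. Their median of 1.03 was 0.80 with a mean of at least 1 CPM, where Cidec and Mogat1 drop out, and 0.68 to 1.21 with each library left out. Of all genes, 346 passed, against 940 with DESeq2, 1544 without a filter on low counts, 136 with limma-voom, 139 with limma-trend, 152 without robust estimation and 153 to 631 with each library left out. In the wider lists 11 passed, against 28 with DESeq2, 28 without the filter, 7 with limma-voom, 5 with limma-trend, 7 without robust estimation and 10 to 15 with each library left out. For these counts the cause was not tested. Under limma-voom, limma-trend and no robust estimation, Fitm2, Vldlr, Adipor2 and Per1 did not pass, nor did Nfil3 under limma-trend or Adipor2 with upper-quartile factors. Aqp7 has no adjusted p with DESeq2 and drops out with a mean of at least 1 CPM. Upper-quartile factors gave 126 of 317 calls higher (39.7%), against 52.6%. With the replicate block 1108 genes passed, and 26 of the wider lists, but nothing says that libraries of equal number pair. The correlation of their deviations over all tested genes was 0.047, which does not settle whether they pair. Over the longest transcript, or the longest coding transcript (chosen after seeing the data), Plin2 averaged 221 CPM per kilobase in place of 119, because that transcript is shorter than the merged exons. Precision is limited by 2 libraries a group, and for Cidea, Cidec, Mogat1 and Aqp7 also by few reads.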
